A study of Bubalus bubalis with 12 samples.

Results

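Genes that build, steady or restrain blood vessels were followed in the corpus luteum, the short-lived ovarian gland that secretes progesterone, while it was driven to regress. The genes were VEGFA, VEGFB and VEGFC, the VEGF receptors FLT1 and KDR, ANGPT1, ANGPT2 and their receptor TEK, and the thrombospondins THBS1 and THBS2. They were taken by exact gene symbol from the annotation of the array, which gave 19 probe sets for the 10 genes, out of 24016 probe sets tested and 9155 genes with a symbol of their own. THBS1 had 6 probe sets, FLT1 had 3, VEGFA and KDR had 2 each, and the other 6 genes had 1 each.

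Whole corpora lutea came from cycling buffalo cows (Bubalus bubalis) on day 11 of the estrous cycle. The control group at 0 h was untreated (n = 4 animals). Treated cows were injected in the muscle with 500 µg cloprostenol, which mimics prostaglandin F2α and induces luteal regression, and their glands were collected after 3 h (n = 2), 6 h (n = 3) or 18 h (n = 3). Each animal gave 1 Affymetrix bovine array, and every value is a log2 intensity made by robust multichip average (RMA), so a difference of 1 is a doubling. The probes follow cattle sequence, so levels are signals, and those of different probe sets are not compared as amounts of transcript.

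VEGF ligands act on endothelial cells through the receptors encoded by FLT1 and KDR, and drive the sprouting and survival of vessels. VEGFC is better known for acting on lymphatic endothelium through FLT4. ANGPT1 activates the endothelial receptor encoded by TEK, also called TIE2, and steadies vessels, while ANGPT2 can block that action. Thrombospondins are secreted matrix proteins that restrain angiogenesis, and THBS1 can also activate TGF-β. The corpus luteum is among the most densely vascularised tissues, and its capillaries are lost as it regresses.

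Luteal markers gave high signals: the 10 luteal steroidogenic markers averaged 13.01 to 13.41 per control array, near the top of a scale that reached 15.33. Array medians lay between 7.09 and 7.17. The 3 h arrays stood apart from each other, differing over 2-fold at 1306 of all probe sets, where other pairs within a group differed at 6 to 802. Among the 19 vascular probe sets, 8 differed over 2-fold between the 3 h arrays, where other pairs had 0 to 2. Control replicates 1 and 4 were the closest pair (r = 0.997 across probe sets, 6 probe sets more than 2-fold apart). Calls of the vascular probe sets and of the other genes named below that were lost with these arrays averaged are given. In whole tissue, fewer cells of a type and less RNA per cell cannot be told apart.

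At 6 h, 9 of the 19 probe sets had changed against controls, with an adjusted p under 0.05 in limma, and they covered 6 of the 10 genes. VEGFC, TEK, THBS2 and 3 probe sets of THBS1 rose, and VEGFB, ANGPT1 and a further probe set of THBS1 fell. At 18 h, 9 probe sets of 5 genes had changed: VEGFC, THBS2 and 4 probe sets of THBS1 rose, and VEGFA, ANGPT1 and 1 probe set of THBS1 fell. Among all probe sets, 11.3% had changed at 6 h (5.26% higher, 6.08% lower) and 12.3% at 18 h (5.71% higher, 6.63% lower), against 47.4% of the vascular probe sets at each time. That share counts THBS1 with 6 probe sets, and the genes were chosen with earlier results of these data known. Without the dimmest 40% of probe sets, 10 of the 16 vascular probe sets left were called at 6 h and 9 at 18 h. Among all probe sets kept in that setting, 2753 and 2896 were called. In a fit with 1 probe set per gene, 6 of the 10 genes were called at 6 h and 5 at 18 h, against 1406 and 1585 of all 9155 genes. The median size of the difference, sign left out, was 0.56 at 6 h and 0.53 at 18 h for the vascular probe sets, against 0.15 and 0.16 for all probe sets. The signed medians were 0.10 and -0.16, since higher and lower calls stood side by side. The groups did not overlap for 12 of the 19 at 6 h and 11 at 18 h, where 25.7% and 25.4% of all probe sets did not. At 6 h, 4 probe sets were called without control replicate 1, 6 h replicate 1 or 6 h replicate 2 and 5 without control replicate 4. Averaging control replicates 1 and 4 left 4. The calls among all probe sets also dropped in these settings, to between 1168 and 1376, against 2724. The 6 h and 18 h comparisons share their controls.

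**Figure D1:**
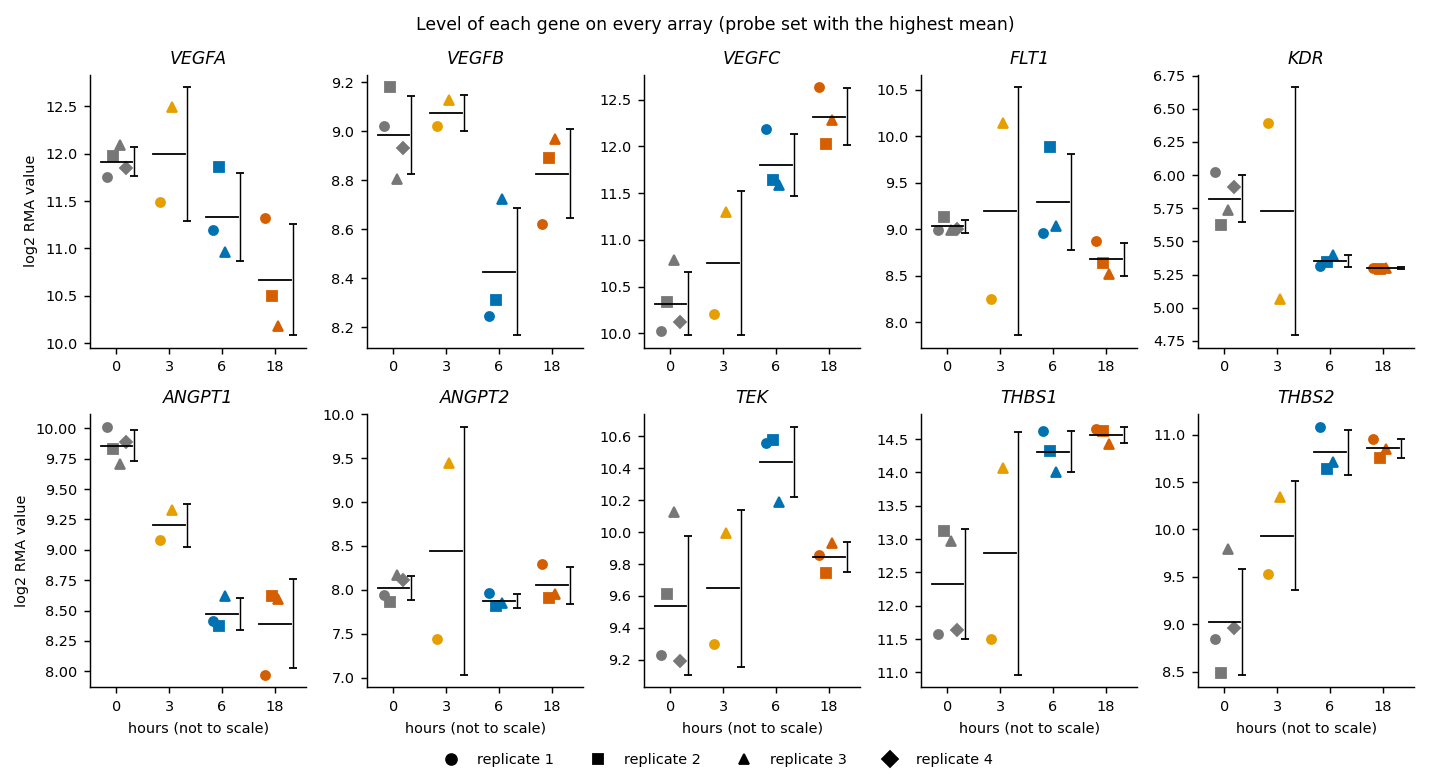
The log2 RMA value (vertical axis, a scale of its own per gene) of the highest-mean probe set of each gene is plotted for every array at 0, 3, 6 and 18 h (not to scale), with the marker shape giving the replicate number, the horizontal line the group mean and the bar the SD. VEGFC, THBS1 and THBS2 lie above all 4 controls at 6 h and 18 h, ANGPT1 lies below them from 3 h, and the 3 h arrays lie far apart for THBS1, ANGPT2, FLT1 and KDR.

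VEGFA, the main driver of endothelial growth and permeability, was read by 2 probe sets. The probe set Bt.4138.2.S1_at gave 11.32, 10.50 and 10.19 in the 18 h glands, against 11.75, 11.98, 12.10 and 11.84 in controls. All 3 values at 18 h lay below every control, and the level fell by 1.25 ± 0.30 on the log2 scale (SE; 2.38-fold lower, 95% interval -1.91 to -0.59, adjusted p = 0.0203 in limma). At 6 h it gave 11.19, 11.86 and 10.96, with 1 array inside the control range, and the difference of -0.58 ± 0.30 did not pass the test (adjusted p = 0.265). The 18 h call was lost without 18 h replicate 2 or 18 h replicate 3 (adjusted p = 0.0731 to 0.0859, difference -1.16 to -1.01), and for the mean of both probe sets (-0.80, adjusted p = 0.0567).

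The other VEGFA probe set, Bt.4138.1.S1_a_at, ran a different course. It gave 8.37, 8.16, 8.53 and 8.43 at 0 h, 8.59 and 9.46 at 3 h, 8.93, 9.07 and 8.66 at 6 h, and 8.48, 7.85 and 7.75 at 18 h. All 5 arrays at 3 h and 6 h lay above all controls, but neither difference passed the test (0.66 ± 0.25, adjusted p = 0.421 at 3 h, and 0.51 ± 0.22, adjusted p = 0.169 at 6 h). With only the groups compared in the limma fit, the 6 h difference passed (adjusted p = 0.0369) and the 3 h difference did not (adjusted p = 0.709). At 18 h it was at -0.34 ± 0.22 (adjusted p = 0.373), with 1 array inside the control range. The log2 ratio of the first probe set over the second was 2.26 to 2.79 at 6 h and 2.43 to 2.84 at 18 h, against 3.38 to 3.82 in controls. Each treated range lay wholly under the controls (difference -1.09 at 6 h and -0.91 at 18 h). The exact two-sided permutation p was 0.0571 for each, the smallest that 3 arrays against 4 can give over 35 arrangements. This pair of probe sets was set against each other after their values were seen. On these arrays the suffix "_a_at" marks probe sets that match several transcripts of 1 gene.

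VEGFB, a ligand of FLT1 that does not bind KDR, was lower at 6 h and did not pass the test at 18 h. It gave 8.24, 8.31 and 8.73 at 6 h, against 9.02, 9.18, 8.80 and 8.93 in controls. The highest 6 h array lay just under the lowest control, and the level fell by 0.56 ± 0.14 on the log2 scale (1.47-fold lower, adjusted p = 0.0266 in limma). At 18 h the values were 8.62, 8.89 and 8.97 (-0.16 ± 0.14, adjusted p = 0.543). The 6 h call was lost with control replicates 1 and 4 averaged (adjusted p = 0.063) and without any 1 of control replicates 1, 2 and 4 or 6 h replicates 1 and 2 (difference -0.57 to -0.47, adjusted p = 0.0589 to 0.113).

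VEGFC was the VEGF ligand that rose. It gave 12.19, 11.64 and 11.59 at 6 h, against 10.02, 10.33, 10.79 and 10.13 in controls. At 18 h it gave 12.64, 12.03 and 12.28. Every 6 h and 18 h array lay above all controls, by 1.49 ± 0.27 on the log2 scale at 6 h (2.80-fold, 95% interval 0.89 to 2.08, adjusted p = 0.00725) and by 2.00 ± 0.27 at 18 h (3.99-fold, 1.40 to 2.59, adjusted p = 0.00117 in limma). Both calls held under every alternative tried, leaving out each array in turn included. At 3 h the arrays gave 10.21 and 11.30, 1 inside the control range and 1 above it, and the 18 h level was 1.56 ± 0.32 above that at 3 h (adjusted p = 0.0294).

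The VEGF receptors passed no test against controls. FLT1, whose receptor binds VEGFA tightly and can act as a trap for it, gave 8.96, 9.88 and 9.04 at 6 h and 8.87, 8.64 and 8.52 at 18 h with its highest-mean probe set Bt.26391.1.A1_at, against 8.99, 9.14, 8.99 and 9.01 in controls. All 3 values at 18 h lay below all controls, but the difference of -0.36 ± 0.36 (95% interval -1.14 to 0.43, adjusted p = 0.603 in limma) was within its error. That error included the spread of the 3 h arrays, which were at 8.25 and 10.14. With only the groups compared in the fit, the FLT1 difference at 18 h had an adjusted p of 0.061. Its other probe sets, Bt.13148.1.S1_at and Bt.13148.1.A1_at, were at -0.21 ± 0.17 and -0.23 ± 0.18 at 18 h, and overlapped the controls.

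KDR encodes the receptor through which VEGFA sends most of its growth signal. Its probe sets were dim, at the 26.2 and 7 percentiles of the mean level of all probe sets. The brighter one, Bt.29836.1.S1_at, gave 5.31, 5.35 and 5.40 at 6 h and 5.30, 5.29 and 5.30 at 18 h, against 6.02, 5.62, 5.74 and 5.91 in controls. All 6 of these treated arrays lay below all controls. The differences of -0.47 ± 0.23 at 6 h and -0.53 ± 0.23 at 18 h did not pass the test (adjusted p = 0.241 and 0.18 in limma). The spread in that fit included the 3 h arrays, which were at 6.39 and 5.07. With only the groups compared in the fit the same KDR differences had adjusted p of 0.0306 at 6 h and 0.0171 at 18 h, and without either 3 h array 0.0121 and 0.00595. The dimmer KDR probe set, Bt.29836.1.A1_at, was at 0.09 ± 0.14 and 0.11 ± 0.14 and overlapped the controls, and the pair ran at r = -0.31 over the 12 arrays.

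ANGPT1 fell at both later times and had the lowest adjusted p of the 10 genes at each. It gave 8.42, 8.37 and 8.62 at 6 h, against 10.01, 9.83, 9.70 and 9.89 in controls. At 18 h it gave 7.97, 8.62 and 8.59. No 6 h or 18 h array came within 1 log2 unit of any control, and the level fell by 1.39 ± 0.16 at 6 h (2.62-fold lower, 95% interval -1.73 to -1.05, adjusted p = 0.000964) and by 1.47 ± 0.16 at 18 h (2.76-fold lower, -1.81 to -1.12, adjusted p = 0.000362 in limma). Both calls held under every alternative tried. At 3 h the arrays gave 9.08 and 9.32, both below all controls, which was a difference of -0.66 ± 0.18 (adjusted p = 0.277). The 18 h level was 0.81 below that at 3 h (-0.81 ± 0.19, adjusted p = 0.0442), while 18 h and 6 h differed by -0.08 ± 0.17 (adjusted p = 0.932).

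ANGPT2 gave 7.97, 7.81 and 7.85 at 6 h and 8.30, 7.91 and 7.95 at 18 h, against 7.94, 7.86, 8.16 and 8.11 in controls. The groups overlapped, and the difference was -0.14 ± 0.34 at 6 h (adjusted p = 0.862) and 0.03 ± 0.34 at 18 h (95% interval -0.71 to 0.78, adjusted p = 0.971 in limma). At 3 h its arrays were at 7.44 and 9.45, 1 below all controls and 1 above them. Without 3 h replicate 1, the ANGPT2 difference at 3 h was 1.43 (adjusted p = 0.00303), and without 3 h replicate 3 it was -0.58 (adjusted p = 0.193). These values rest on 1 gland each, assumed to vary like the other groups.

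TEK, the receptor for both angiopoietins, passed the test against controls at 6 h and not at 18 h. It gave 10.56, 10.58 and 10.19 at 6 h, against 9.23, 9.61, 10.12 and 9.19 in controls. The lowest 6 h array lay just above the highest control, and the level rose by 0.90 ± 0.23 on the log2 scale (1.87-fold, adjusted p = 0.028 in limma). At 18 h the values of 9.86, 9.74 and 9.93 lay inside the control range (0.30 ± 0.23, adjusted p = 0.46), and the difference of 18 h from 6 h was -0.60 ± 0.24 (adjusted p = 0.365). The 6 h call was lost with control replicates 1 and 4 averaged (adjusted p = 0.0807) and without any 1 of control replicates 1, 2 and 4 or 6 h replicates 1 and 2 (difference 0.79 to 0.93, adjusted p = 0.0536 to 0.108).

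**Figure D2:**
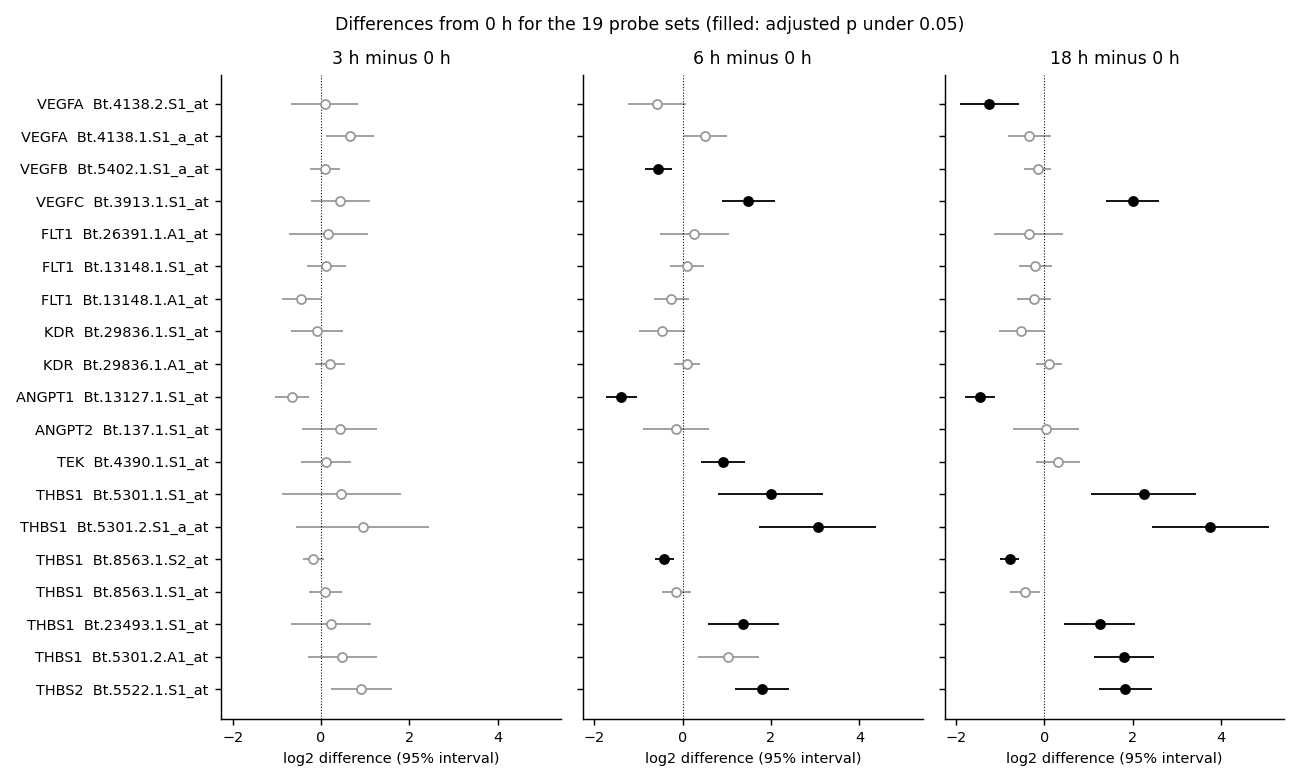
The log2 difference from 0 h (horizontal axis) with its 95% interval is drawn for all 19 probe sets at 3 h, 6 h and 18 h, filled where the adjusted p was under 0.05. No probe set is filled at 3 h, 9 are at 6 h and 9 at 18 h, with ANGPT1 to the left and VEGFC, THBS2 and most THBS1 probe sets to the right of 0.

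THBS1 carried the widest differences, and its 6 probe sets did not move as 1. The brightest, Bt.5301.1.S1_at, gave 14.62, 14.32 and 14.01 at 6 h and 14.65, 14.63 and 14.43 at 18 h, against 11.58, 13.12, 12.96 and 11.64 in controls. The controls themselves fell into a high pair and a low pair, and all treated arrays at these times lay above them. The rise was 1.99 ± 0.54 on the log2 scale at 6 h (3.97-fold, adjusted p = 0.0367) and 2.24 ± 0.54 at 18 h (4.73-fold, adjusted p = 0.0199 in limma). With control replicates 1 and 4, the low pair, averaged, both calls were lost (adjusted p = 0.104 at 6 h and 0.0618 at 18 h). The 6 h call was also lost without any 1 of control replicates 1 and 4 or of the 6 h and 18 h arrays (difference 1.74 to 2.14, adjusted p = 0.0512 to 0.127). The 18 h call was lost without any 1 of control replicates 1 and 4 or of the 18 h arrays (1.99 to 2.31, adjusted p = 0.0518 to 0.0732).

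A second THBS1 probe set, Bt.5301.2.S1_a_at, had the largest difference of the 19. It gave 13.66, 13.34 and 12.76 at 6 h and 14.31, 13.78 and 13.76 at 18 h, against 9.52, 10.61, 11.13 and 9.53 in controls. The lowest treated array lay more than 1 log2 unit above the highest control. The rise was 3.06 ± 0.61 at 6 h (8.31-fold, 95% interval 1.73 to 4.38, adjusted p = 0.0102) and 3.75 ± 0.61 at 18 h (13.5-fold, 2.42 to 5.08, adjusted p = 0.00278 in limma). Both calls held with each array left out in turn and with control replicates 1 and 4 averaged.

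The THBS1 probe set Bt.5301.2.A1_at gave 8.44, 8.31 and 7.51 at 6 h and 9.72, 8.37 and 8.47 at 18 h, against 7.02, 6.93, 7.02 and 7.26 in controls. All 6 treated arrays lay above all controls, and it was at 1.03 ± 0.31 at 6 h (adjusted p = 0.0564) and rose by 1.80 ± 0.31 at 18 h (3.47-fold, adjusted p = 0.00399 in limma). The probe set Bt.23493.1.S1_at gave 11.42, 11.18 and 10.82 at 6 h and 11.13, 11.04 and 10.91 at 18 h, against 9.45, 10.15, 10.15 and 9.37 in controls. It rose by 1.37 ± 0.37 at 6 h (adjusted p = 0.0353) and by 1.25 ± 0.37 at 18 h (adjusted p = 0.0472). The 18 h call of this probe set was lost when the arrays were centred on their medians and when they were quantile normalized again. With control replicates 1 and 4 averaged, its calls were lost (adjusted p = 0.0978 and 0.124). They were also lost at 6 h without any 1 of control replicates 1 and 4, the 6 h arrays or 18 h replicate 1 (difference 1.23 to 1.53, adjusted p = 0.05 to 0.129), and at 18 h without any 1 of control replicates 1, 2 and 4 or of the 6 h and 18 h arrays (1.11 to 1.37, adjusted p = 0.0569 to 0.146). Without 6 h replicate 3 or 18 h replicate 1 the 6 h difference of Bt.5301.2.A1_at passed the test (1.03 to 1.32, adjusted p = 0.0158 to 0.0338).

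Of the remaining THBS1 probe sets, 1 fell and 1 did not pass the test. Bt.8563.1.S2_at gave 10.58, 10.60 and 10.81 at 6 h and 10.45, 10.23 and 10.21 at 18 h, against 11.18, 10.98, 11.13 and 11.03 in controls. All treated arrays at these times lay below all controls, and the level fell by 0.42 ± 0.10 at 6 h (1.33-fold lower, adjusted p = 0.0213) and by 0.78 ± 0.10 at 18 h (1.72-fold lower, adjusted p = 0.000818 in limma). The 18 h call held under every alternative tried, and the 6 h call was lost with control replicates 1 and 4 averaged (adjusted p = 0.0527) and without any 1 of control replicate 1 or 6 h replicates 1 and 2 (difference -0.38 in each, adjusted p = 0.066 to 0.0904). Bt.8563.1.S1_at was at -0.14 ± 0.15 at 6 h and -0.44 ± 0.15 at 18 h (adjusted p = 0.0836), and passed at 18 h without control replicate 2 (-0.59, adjusted p = 0.00668).

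The split followed the transcript cluster that each probe set's name carries: the 3 probe sets of cluster 5301 and that of cluster 23493 rose at 18 h, while of the 2 of cluster 8563 1 fell and 1 did not pass. Bt.5301.1.S1_at correlated at r = 0.98 with Bt.5301.2.S1_a_at and with Bt.23493.1.S1_at, and at r = -0.76 with Bt.8563.1.S2_at and -0.60 with Bt.8563.1.S1_at. The THBS1 log2 ratio of Bt.5301.1.S1_at over Bt.8563.1.S2_at was 3.20 to 4.04 at 6 h and 4.20 to 4.40 at 18 h, against 0.40 to 2.14 in controls. The ranges did not meet (difference 2.40 at 6 h and 3.03 at 18 h, exact two-sided permutation p = 0.0571 each, the smallest that 3 arrays against 4 can give), and the pair was chosen after its values were seen. All 6 probe sets carry the same gene symbol in the annotation, and which transcript each one reads was not tested.

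**Figure D3:**
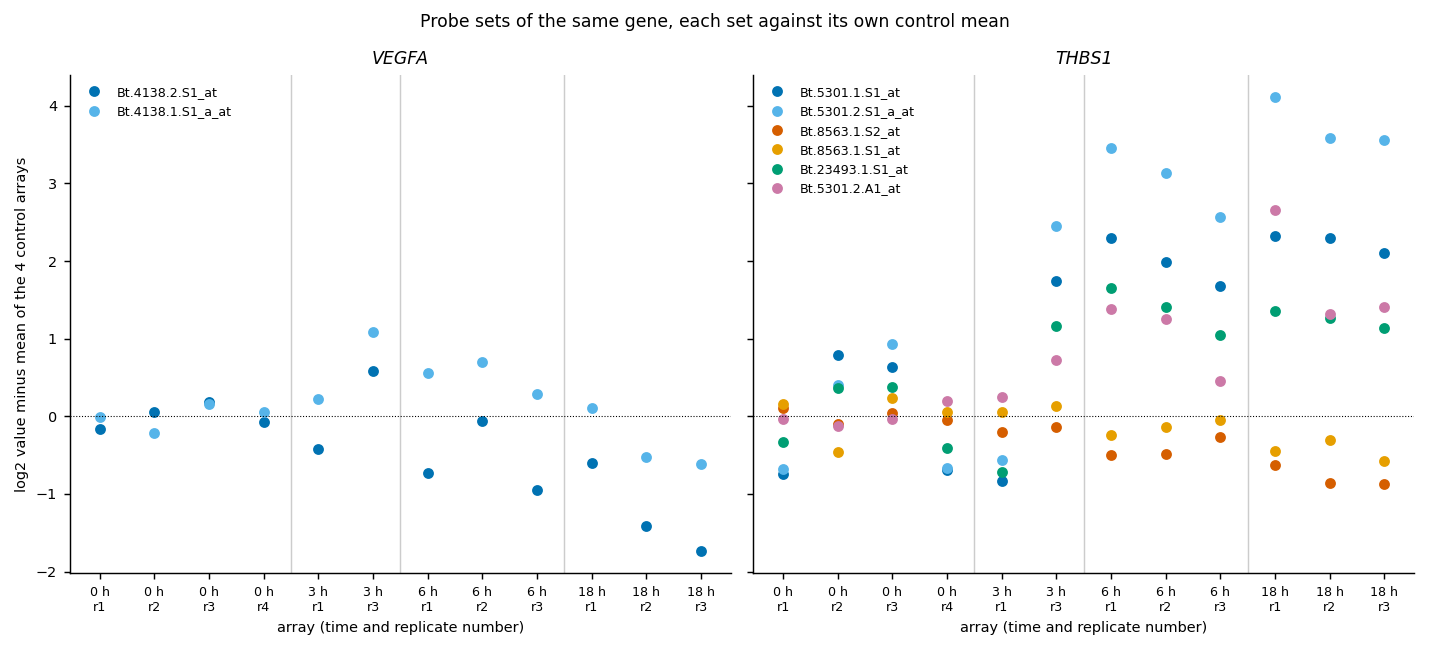
The log2 value of each VEGFA (left) and THBS1 (right) probe set minus its own mean in the 4 control arrays (vertical axis) is plotted for the 12 arrays, ordered by time and replicate number. The VEGFA probe sets part at 6 h and 18 h, and the THBS1 probe sets fan out, with 4 above and 2 below their control mean on every 6 h and 18 h array.

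THBS2, a close relative of THBS1, was read by 1 probe set and rose about as far at 6 h as at 18 h. It gave 11.09, 10.64 and 10.71 at 6 h and 10.96, 10.76 and 10.85 at 18 h, against 8.85, 8.48, 9.80 and 8.96 in controls. All 6 treated arrays lay above all controls, by 1.79 ± 0.28 on the log2 scale at 6 h (3.46-fold, 95% interval 1.18 to 2.40, adjusted p = 0.00363) and 1.83 ± 0.28 at 18 h (3.56-fold, 1.23 to 2.44, adjusted p = 0.00197 in limma). Both calls held under every alternative tried. At 3 h it gave 9.53 and 10.35 (0.91 ± 0.31, adjusted p = 0.375), with 1 array inside the control range and 1 above it.

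At 3 h no vascular probe set passed the test. In limma 0 of the 19 had an adjusted p under 0.05, as did 0.0208% of all probe sets, while 4 of the 19 (21.1%) had an unadjusted p under 0.05, against 9.89% of all. The 3 h and control groups did not overlap for 5 of the 19, against 14.4% of all probe sets. The 3 h arrays took different sides: of the 9 probe sets that had changed at 6 h, 3 h replicate 3 lay past all controls in the direction of the 6 h change for 7, and 3 h replicate 1 for 2. THBS1 shows it, with Bt.5301.2.S1_a_at at 12.64 on replicate 3 and at 9.64 on replicate 1. Without 3 h replicate 1, ANGPT2 (above) and KDR passed at 3 h, KDR lower (-0.76, adjusted p = 0.0274), and without replicate 3 no member did, KDR then being at 0.57 (adjusted p = 0.146). Each of these values rests on 1 gland, assumed to vary like the other groups.

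Between treated times, VEGFC, ANGPT1 and the THBS1 probe set Bt.8563.1.S2_at differed at 18 h from 3 h, by 1.56, -0.81 and -0.61 ± 0.12 (adjusted p = 0.0294, 0.0442 and 0.0218 in limma). These 3 of 19 stand against 2.84% of all probe sets. None of the 3 was called without 18 h replicate 3, 1 of 19 was without 18 h replicate 1, and 5 were without either 3 h array. Without 3 h replicate 1 all 5 were lower at 18 h (both VEGFA probe sets, FLT1, ANGPT2 and the same THBS1 probe set), and without 3 h replicate 3, 4 were higher (VEGFC and 3 THBS1 probe sets) and KDR lower. Between 6 h and 3 h, 0 of 19 passed (0.237% of all; 8 of the 19 had an unadjusted p under 0.05, against 12.6% of all). Between 18 h and 6 h, 0 of 19 passed (0.45% of all). At an unadjusted p under 0.05 there were 5, against 11.3% of all, among them VEGFA (Bt.4138.1.S1_a_at, -0.86 ± 0.24, adjusted p = 0.155) and VEGFB (0.40 ± 0.15, adjusted p = 0.302).

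The genes around these ligands were described through lists, each gene by its highest-mean probe set, and 113 genes of 13 lists were measured. Over all 9155 genes, 6.55% were higher and 7.66% lower at 6 h, and 7.55% were higher and 8.35% lower at 18 h. In the lists, 21 genes were higher and 4 lower at 6 h, and 28 higher and 11 lower at 18 h. At 3 h 1 list gene was lower, NOSTRIN, which binds endothelial nitric oxide synthase (-0.93 ± 0.11, adjusted p = 0.0333 in limma), and 20 had an unadjusted p under 0.05. Averaging control replicates 1 and 4 cost some of these calls. Among the list genes named for their low adjusted p, NOSTRIN was lost at 3 h. HIF1A, ITGB1, HGF, EDN1, TAGLN, CNN1, DES and PTGFR were lost at 6 h. NRP1, NRP2, ANGPT4, TIE1, DCN, CNN1, LUM and TYROBP were lost at 18 h (adjusted p = 0.0507 to 0.129 in limma over these named calls). VWF at 6 h and some list genes not named here were lost too. The list counts carry no test, and the lists were chosen with results of these data known. The median difference of all genes was -0.05 at 6 h and -0.02 at 18 h.

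Of 8 hypoxia sensing genes, 2 rose at 6 h and 2 at 18 h (list medians 0.39 and 0.04). CITED2, which competes with the hypoxia-inducible factors for a shared coactivator, rose by 0.95 ± 0.21 at 6 h (adjusted p = 0.0145) and 1.11 ± 0.21 at 18 h (adjusted p = 0.00541 in limma). HIF1A, whose protein drives VEGFA transcription at low oxygen, rose by 0.34 ± 0.10 at 6 h (adjusted p = 0.0399). EGLN3, a prolyl hydroxylase that marks that protein for breakdown, rose by 2.38 ± 0.33 at 18 h (adjusted p = 0.00124).

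Of 5 VEGF relatives and co-receptors, none passed at 6 h. At 18 h the neuropilins, which hold VEGF beside its receptors, took opposite directions: NRP2 rose by 1.09 ± 0.30 (adjusted p = 0.0348) and NRP1 fell by 0.89 ± 0.23 (adjusted p = 0.0254 in limma). FLT4, the receptor of VEGFC, was at -0.12 ± 0.15 at 6 h and -0.16 ± 0.15 at 18 h (adjusted p = 0.681 and 0.564). In the TIE receptor system, 5 genes were measured, none passed at 6 h, and at 18 h ANGPT4, a further TEK ligand, fell by 1.0 ± 0.27 (adjusted p = 0.0351) while TIE1, the partner of TEK, rose by 0.46 ± 0.13 (adjusted p = 0.0445). With control replicates 1 and 4 averaged, 0 of 5 passed at 18 h in each of these lists. The list medians were -0.14 at 6 h and -0.16 at 18 h for the VEGF relatives, and 0.02 and 0.46 for the TIE system.

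Of 11 thrombospondin relatives and receptors, 4 rose at 6 h, and 3 rose and 1 fell at 18 h (list medians 0.38 and 0.23). ITGAV and ITGB3, which pair as an integrin that binds thrombospondins, rose by 1.43 ± 0.30 and 1.64 ± 0.31 at 6 h (adjusted p = 0.0129 and 0.00889 in limma) and by 1.58 ± 0.30 and 1.99 ± 0.31 at 18 h. Of the 4 probe sets of ITGB3, 1 passed at 6 h and 2 at 18 h. TGFB1, whose latent protein thrombospondin 1 can activate, rose by 1.39 ± 0.30 at 6 h (adjusted p = 0.0142) and 1.97 ± 0.30 at 18 h (adjusted p = 0.002). ITGB1, another integrin subunit, rose by 0.43 ± 0.10 at 6 h, and THBS3 fell by 0.70 ± 0.12 at 18 h with 1 of its 2 probe sets. The classical thrombospondin receptors did not pass: CD36 was at -0.46 ± 0.27 at 6 h and 0.14 ± 0.27 at 18 h, and CD47 was at 0.38 ± 0.20 and 0.52 ± 0.20 (adjusted p = 0.114 at 18 h).

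Among 16 other angiogenic ligands and receptors, 4 rose at 6 h and 4 at 18 h, and none fell (list medians 0.24 and 0.17). SPHK1, which makes the lipid signal sphingosine-1-phosphate, rose by 1.16 ± 0.12 at 6 h (adjusted p = 0.000574), the Notch ligand DLL4 by 0.57 ± 0.13, HGF by 0.49 ± 0.12 and EDN1, the precursor of the vasoconstrictor endothelin, by 1.58 ± 0.43 (adjusted p = 0.0378 in limma). At 18 h EDN1 was up by 2.37 ± 0.43, SPHK1 by 0.84 ± 0.12, DLL4 by 0.50 ± 0.13 and PDGFRA by 3.05 ± 0.57. Of 10 other angiogenesis inhibitors, TIMP1 (0.64 ± 0.10) and TIMP3 (1.78 ± 0.38) rose at 6 h, and TIMP1 (0.83 ± 0.10), TIMP3 (2.12 ± 0.38) and DCN (0.76 ± 0.19) at 18 h, with list medians of 0.19 and -0.14. TIMP3 blocks the binding of VEGFA to KDR as well as matrix proteases. Of 12 genes of the VEGF signal, 1 rose at each time (list medians 0.07 and 0.19), NOS3, the endothelial nitric oxide synthase, by 1.58 ± 0.27 at 6 h (adjusted p = 0.00597) and 1.33 ± 0.27 at 18 h (adjusted p = 0.00917).

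**Figure D4:**
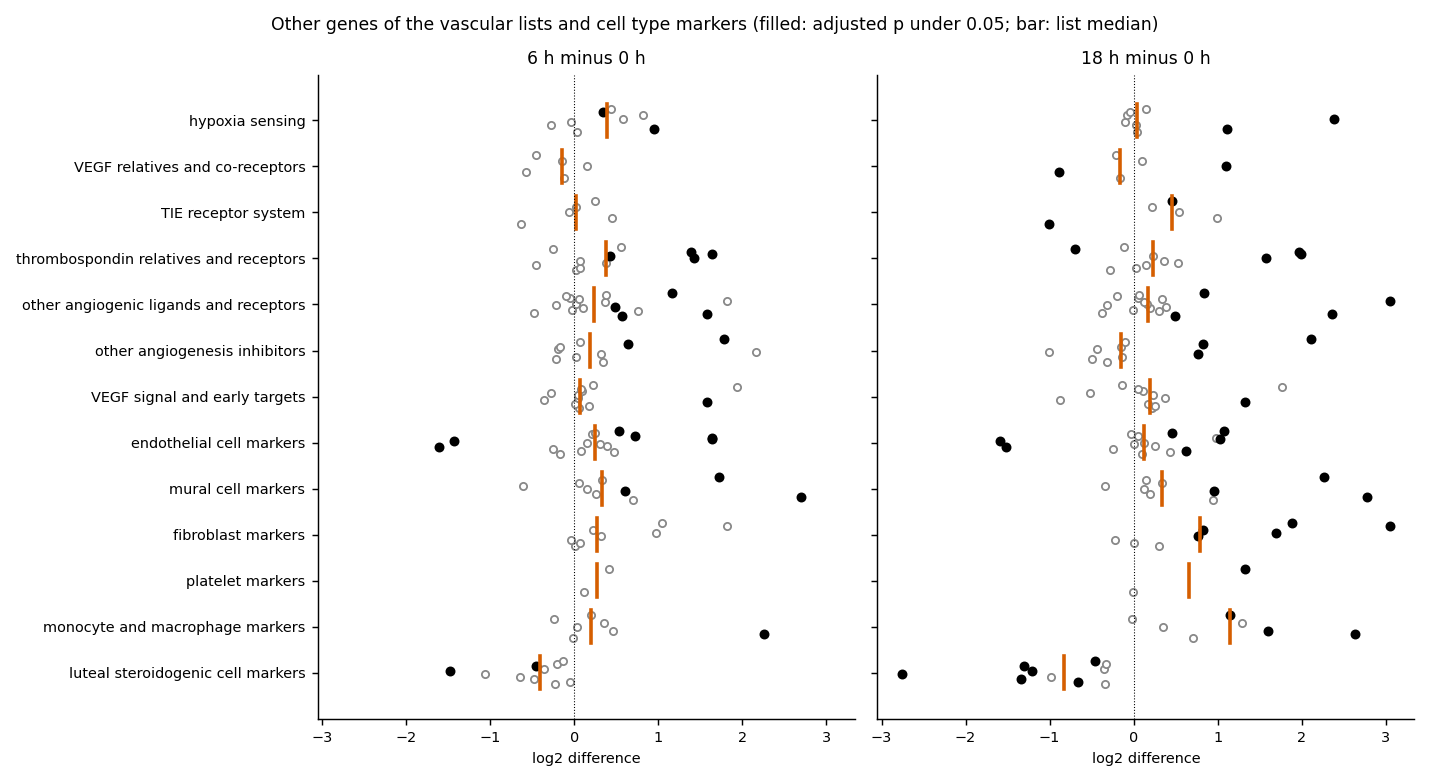
The log2 difference from 0 h (horizontal axis) of every measured gene of the 13 lists is plotted at 6 h (left) and 18 h (right), filled where the adjusted p was under 0.05, with an orange bar at the list median. Called endothelial markers lie on both sides of 0, called luteal markers lie to the left, and called genes of the thrombospondin list lie to the right apart from THBS3 at 18 h.

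Markers of the cells that make or receive these signals were described in the same way. Of 15 endothelial markers, 4 were higher and 2 lower at 6 h, with the same counts but not all the same genes at 18 h. With control replicates 1 and 4 averaged, 4 were called at 6 h (2 higher) and 5 at 18 h (3 higher). The mean level of the 15 was 9.42 to 9.52 at 6 h and 9.35 to 9.49 at 18 h, against 9.09 to 9.53 in controls (list medians 0.24 and 0.13). PECAM1, a junction protein, rose by 1.64 ± 0.20 at 6 h (adjusted p = 0.00131) and 1.03 ± 0.20 at 18 h, and PLVAP by 1.63 ± 0.34 at 6 h. VWF, stored in endothelial granules, rose by 0.53 ± 0.15 at 6 h (adjusted p = 0.0465 in limma) and by 1.08 ± 0.15 at 18 h, each with 1 of its 2 probe sets. The 6 h call of VWF was lost with control replicates 1 and 4 averaged. EMCN, a surface sialomucin, fell by 1.61 ± 0.19 at 6 h (adjusted p = 0.00109 in limma) and 1.52 ± 0.19 at 18 h, and NOSTRIN by 1.44 ± 0.10 and 1.59 ± 0.10. CDH5, the endothelial cadherin, was at 0.47 ± 0.15 at 6 h and 0.43 ± 0.15 at 18 h with its highest-mean probe set (adjusted p = 0.0633 and 0.0817). The other of its 2 probe sets was called higher at both times.

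Called markers of mural cells, fibroblasts, macrophages and platelets were all higher. The 9 mural markers averaged 9.70 to 9.91 at 6 h and 9.85 to 10.16 at 18 h, against 8.84 to 9.66 in controls (list medians 0.33 and 0.34), with TAGLN, CNN1 and DES higher at both times. At 6 h none of these 3 mural calls held with control replicates 1 and 4 averaged. The 8 fibroblast markers averaged 12.46 to 12.94 at 18 h, against 11.09 to 12.21 in controls (list median 0.79), with 5 of 8 higher at 18 h, PDGFRA, POSTN (1.89 ± 0.36), DCN and LUM (0.82 ± 0.20) among them. With the 2 control arrays averaged, 2 of 8 were. The 7 monocyte and macrophage markers averaged 9.05 to 9.91 at 18 h, against 7.93 to 9.42 in controls (list median 1.15), with CD14 higher at 6 h (2.25 ± 0.45) and CD14 (2.64 ± 0.45), CD68 and TYROBP higher at 18 h. Without control replicate 3, 6 of these 7 were higher at 18 h, and with control replicates 1 and 4 averaged, 2 of 7 were. Of the 2 platelet markers measured, PF4 rose at 18 h (1.32 ± 0.22, adjusted p = 0.00292 in limma) and ITGA2B was at -0.01 ± 0.10. Platelets, fibroblasts and macrophages can carry THBS1, and the part of any cell type in the THBS1, THBS2 and VEGFC differences was not tested.

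Markers of the luteal cells, which make VEGFA in this gland, were lower. The 10 markers averaged 12.53 to 12.93 at 6 h and 12.12 to 12.64 at 18 h, against 13.01 to 13.41 in controls, with 2 lower at 6 h and 6 lower at 18 h (list medians -0.41 and -0.83). With control replicates 1 and 4 averaged, 1 of 10 was lower at 6 h. NR5A1, a transcription factor of steroidogenic cells, fell by 1.48 ± 0.26 at 6 h (adjusted p = 0.00632), with 2 of its 4 probe sets. PTGFR, the prostaglandin F2α receptor, fell by 0.46 ± 0.11 at 6 h, with 1 of its 3 probe sets. At 18 h PTGFR fell by 1.31 ± 0.11 (adjusted p = 8.14e-05 in limma), with all 3. The progesterone-forming enzyme HSD3B1 fell by 1.35 ± 0.16 at 18 h and the cholesterol carrier STAR by 0.46 at 18 h (adjusted p = 0.0151). The part of luteal cells in the VEGFA difference at 18 h was not tested.

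Genes that ran most like each member over the 12 arrays were found by Pearson correlation with its highest-mean probe set, a description that shares the same 4 time groups for every gene. VEGFC ran most like GLUL, ANTXR2 and EAF1 (each r = 0.99). THBS1 ran most like CCN2 (0.99), CNN1 (0.98) and HMGA1 (0.97), and THBS2 like PLAUR, HNRNPAB and GGTA1 (each 0.97). ANGPT1 ran most like HNRNPC (0.98), ANAPC5 (0.97) and LIAS (0.97), and VEGFA like LGALS3BP (0.91), AQP4 (0.89) and GAA (0.88). For VEGFB the closest was ID3 (0.93), for FLT1 KLHL2 (0.92), for KDR ANAPC11 (0.95), for ANGPT2 PROKR1 (0.87) and for TEK F2RL1 (0.93).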

How the data were processed

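Total RNA of 12 whole corpora lutea was hybridised to Affymetrix bovine arrays, 1 per animal. The deposited values are log2 intensities from the authors' robust multichip average (RMA), a method that subtracts background, equalises arrays and joins the probes of each probe set. The RMA software version is not given in the sources used here. Of 24128 probe sets, 112 controls were left out. The platform annotation gave 1 symbol for 13292 probe sets, several for 86 and none for 10638.

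Group means were fitted to all 12 arrays in R 4.3.3 with limma 3.58.1 (lmFit, contrasts.fit, eBayes at default settings), two-sided, and p-values were adjusted by Benjamini-Hochberg over 24016 probe sets within each comparison, with calls at an adjusted p under 0.05. Differences are given ± SE of the fit. The fit was tested on simulated data for 18 h against 0 h, and the outcome is not reported here. The members and lists were chosen with earlier results of these data known. Up to 4 called genes with the lowest adjusted p were named per list and comparison with 0 h, then 3 genes per member by correlation, and STAR, HSD3B1, PECAM1, CDH5 and VWF as fixed genes. FLT4, CD36, CD47 and ITGA2B were named for their roles after their values were seen. Alternatives changed the filter, scaling, variance model, arrays in the fit, replicate block, control replicates 1 and 4, the choice of probe set and the arrays, 1 left out at a time. Promoter sequences were not analysed here. The number of arrays limits the precision.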

Additional observations from a re-analysis of the deposited data

Results flagged for a closer look

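The control array of replicate 2 gave 9.14 for the FLT1 probe set Bt.26391.1.A1_at, apart from the other 3 controls at 8.99 to 9.01, and was the only one of 19 control groups with such a gap, which chance gives in about 1 in 20 groups. Differences between treated times were found by test for VEGFC, which was 1.56 higher at 18 h than at 3 h on the log2 scale, for ANGPT1 (-0.81) and for the THBS1 probe set Bt.8563.1.S2_at (-0.61), with the 3 h group resting on 2 arrays that stood apart from each other.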

How the results depend on the processing

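Of 1134 member values under alternatives, 0 reversed a called direction, 64 lost and 14 gained a call, and of 756 values for uncalled differences 22 had the other sign. At 6 h against 0 h, 9 probe sets were called, 3 with the replicate block, 4 with control replicates 1 and 4 averaged and 4 to 10 with 1 array left out. At 18 h against 0 h, 9 were called, 6 with the replicate block, 7 with control replicates 1 and 4 averaged and 6 without 18 h replicate 2 or 18 h replicate 3. The 9 covered 5 genes, where 5 of 10 genes were called with 1 probe set per gene and 4 of 10 with the mean of a gene's probe sets. At 3 h against 0 h, 0 to 2 were called with 1 array left out. At 6 h against 3 h, 0 to 5 were, with 5 without 3 h replicate 3 and 1 without 3 h replicate 1. At 18 h against 3 h, 3 were called, 0 with only the groups compared, 0 with the replicate block and 0 to 5 with 1 array left out, with 5 without either 3 h array, 1 without 18 h replicate 1 and 0 without 18 h replicate 3. With trend and robust settings THBS1 was lost for Bt.5301.1.S1_at at 6 h (adjusted p = 0.0558) and for Bt.23493.1.S1_at at 18 h (adjusted p = 0.0562 in limma). Calls lost with the replicate block included THBS1 for Bt.5301.2.S1_a_at at 6 h (adjusted p = 0.0541 in limma) and VEGFA for Bt.4138.2.S1_at at 18 h (adjusted p = 0.0866). Replicate numbers recur between times, and the deviations of same-numbered arrays from their group means correlated at -0.26 to 0.19 over 15 pairs. Differently numbered pairs were not computed for comparison, so whether same-numbered arrays share more than a number was not tested. Of 819 list counts, 95 moved by over 1.5 times. The cause of these changes was not tested. Groups of 2 to 4 arrays limit what can be called.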
